A study of Sus scrofa with 32 samples.

Results

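IL24, the receptor chains IL20RA, IL20RB and IL22RA1, and the shared chain IL10RB were followed through 4 compartments of the pig endometrium on Day 14: the epithelium of the lumen (LE) and of the glands (GE), the larger blood vessels (BV), and the stroma (S). These 5 genes were chosen by name, with their pregnancy and compartment pattern in these data already known, and each was matched by its pig symbol to 1 of the 30185 genes in the count tables. Their levels and their differences between pregnant and cyclic gilts are therefore given as descriptions, with no test. The filtered tables of detectable genes held 3 of the 5 in LE, 2 each in GE and S, and 1 in BV.

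The study asked where in the endometrium gene expression changes when the conceptus attaches. Both groups were prepuberal gilts (Sus scrofa) whose cycles were synchronised with gonadotropins, eCG followed by hCG. The 4 pregnant gilts (gilts P139, P39, P41 and P43) were inseminated with semen, and the 4 gilts labelled control or nonpregnant (gilts C128, C40, C42 and C78), called cyclic here, received sperm-free semen supernatant from the same boar. Each library came from 1 compartment of 1 gilt, cut by laser capture microdissection from frozen sections, and tissue of pregnant gilts came from the hyperemic attachment zones. Each gilt is named by the letter of its group (C or P) and its number. The 31 libraries comprised 3 of pregnant GE, since that of gilt P41 was not analysed here, and 4 of each other group.

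IL24 is a secreted cytokine of the IL10 family. It acts through pairs of class II cytokine receptor chains, either IL20RA with IL20RB or IL22RA1 with IL20RB, which pass the signal through JAK kinases mainly to STAT3. IL20 shares both pairs, IL19 shares only that of IL20RA with IL20RB, and IL22 uses IL22RA1 with IL10RB. The specific chains are best known from epithelia such as skin, where the pathway controls keratinocyte growth and the expression of antimicrobial proteins, and IL10RB is shared with the IL10 and interferon lambda receptors.

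Total counts per library ranged from 2415216 to 7081556, with a median of 3624021. Values are given as raw counts or as CPM (counts relative to library size) scaled by TMM factors over all libraries. The summed CPM of 8 epithelium markers ranged from 2280 to 3228 in LE, from 1574 to 1951 in GE, from 3.41 to 322 in BV and from 11.13 to 461 in S. The median for 7 fibroblast markers was 12513 CPM for LE, 5277 for GE, 55848 for BV and 80720 for S, so LE libraries also held fibroblast transcripts. Smooth muscle markers had their highest median in BV (6129 CPM), and the 9 leukocyte markers summed to at most 358 CPM in any library.

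IL24 (gene 100739374) lies at chr9:67525246-67532407 on the plus strand of Sscrofa11.1, with 5 exons that sum to 3032 bases. IL24 transcripts were almost all in LE of cyclic gilts. Its counts there were 379, 334, 260 and 37 in gilts C128, C40, C42 and C78, which correspond to 98.0, 69.4, 72.3 and 8.12 CPM. In LE of pregnant gilts P139, P39, P41 and P43 the counts were 3, 0, 0 and 0. The groups did not overlap, but gilt C78 was far below the other cyclic gilts, and the highest cyclic value was 12.1 times the lowest. The mean was 62.0 ± 38.1 CPM (SD, n = 4) for cyclic and 0.189 ± 0.378 CPM (n = 4) for pregnant LE. The ratio of pooled CPM was 354, with an exact 95% interval of 121 to 1718 that covers counting error only and rests on 3 counts in 1 pregnant gilt. In bulk samples such as these, fewer cells of a type and less RNA per cell cannot be told apart. The epithelium markers also differed between the LE groups without overlap, from 2643 to 3228 CPM in cyclic and from 2280 to 2497 CPM in pregnant gilts, and their part in the LE differences was not tested. In LE of gilt C78, fibroblast markers summed to 4087 CPM, against 10655 to 14832 CPM in the other cyclic gilts. Endothelium markers summed to 124 CPM there, against 312 to 718 CPM. The part of such differences in the low IL24 of gilt C78 was not tested.

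**Figure D1:**
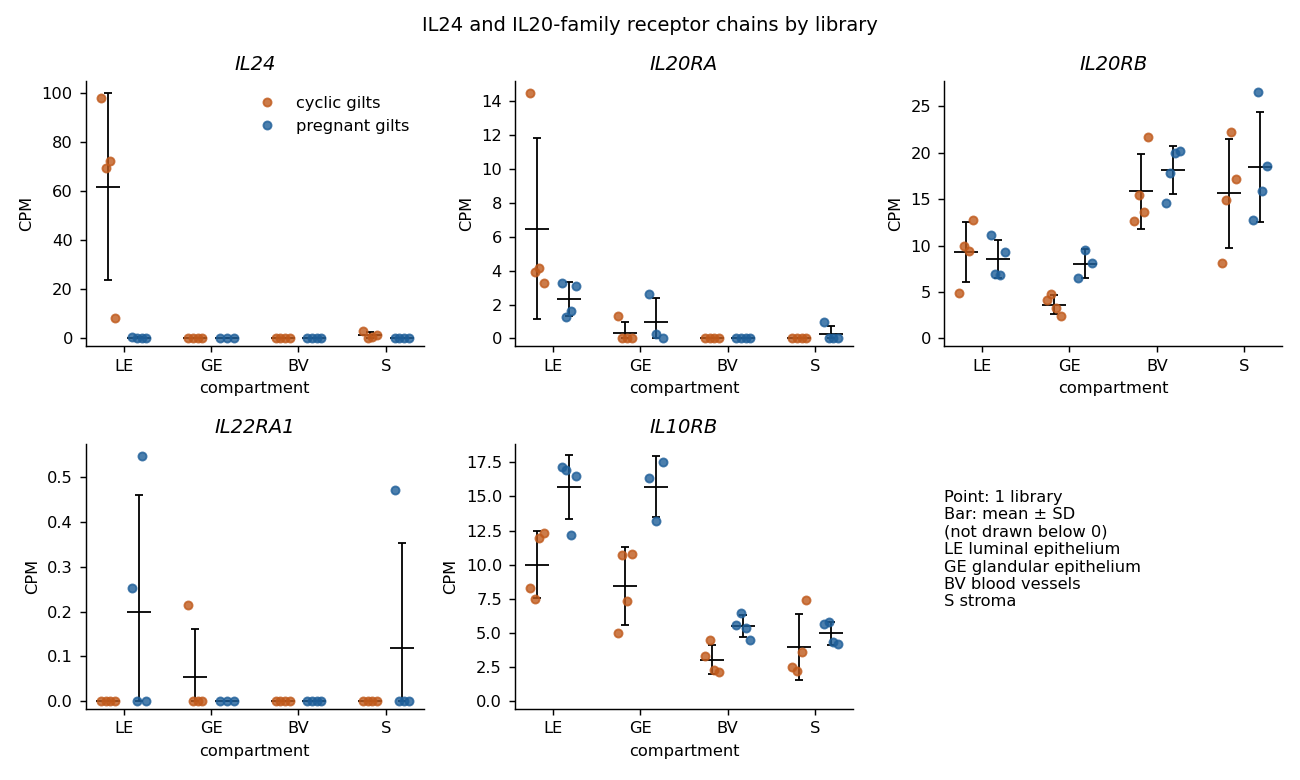
CPM (vertical axis) of the 5 genes in each library by compartment (horizontal axis); points are libraries, orange for cyclic and blue for pregnant gilts, and bars give mean ± SD. IL24 reaches 98.0 CPM in cyclic LE and stays under 3 CPM elsewhere, IL20RA is mostly in LE, IL20RB is highest in BV and S, and IL10RB is highest in LE and GE.

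Outside LE, IL24 was barely detected. GE held 2 counts, 1 each in cyclic gilts C42 and C78, and the 8 BV libraries held none, where 3 counts over a group would equal 0.245 CPM in cyclic and 0.292 CPM in pregnant gilts. Stroma of cyclic gilts C128, C40, C42 and C78 held 15, 0, 2 and 8 counts, and stroma of the 4 pregnant gilts held none, a pooled level at least 6.11-fold higher in cyclic gilts against a floor of 3 counts over the group. Cyclic LE thus took 1010 of the 1040 IL24 counts in all libraries (97.1%), and 21 of 31 libraries were at 0. Within each cyclic gilt, LE was higher than GE, BV and S in 4 of 4.

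The stromal libraries with the most IL24 counts also carried more epithelial transcripts than the other cyclic ones. Epithelium markers summed to 182 CPM in stroma of cyclic gilt C128 and to 160 CPM in that of gilt C78, against 14.6 CPM in gilt C40 and 11.13 CPM in gilt C42. In stroma of pregnant gilts they summed to between 38.8 and 461 CPM with no IL24 count. The part of these transcripts in the stromal IL24 counts was not tested. Without the stromal libraries of gilts C128 and C78, cyclic LE took 99.3% of all IL24 counts.

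The window of 250 bases before the annotated start of IL24 is shown beside those of the chains that form its receptors, because the ligand and the chains differed in where they were detected. The sequences were read from the RefSeq assembly Sscrofa11.1 and run 5′ to 3′ on the strand of the gene. Capitals mark matches on either strand to AP-1 (TGANTCA), C/EBP (TTGCNNAA), STAT (TTCNNNGAA) motifs or to the NF-kB consensus, and matches could overlap. The windows are chr9:67524996-67525245 (plus strand) for IL24, chr1:27137295-27137544 (plus) for IL20RA, chr13:77946106-77946355 (plus) for IL20RB and chr6:81885018-81885267 (minus) for IL22RA1.
IL24: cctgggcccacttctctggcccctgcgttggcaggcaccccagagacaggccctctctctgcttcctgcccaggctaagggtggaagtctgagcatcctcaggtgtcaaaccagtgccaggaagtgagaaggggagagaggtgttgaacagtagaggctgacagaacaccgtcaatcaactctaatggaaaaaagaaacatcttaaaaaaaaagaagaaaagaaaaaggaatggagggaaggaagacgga
IL20RA: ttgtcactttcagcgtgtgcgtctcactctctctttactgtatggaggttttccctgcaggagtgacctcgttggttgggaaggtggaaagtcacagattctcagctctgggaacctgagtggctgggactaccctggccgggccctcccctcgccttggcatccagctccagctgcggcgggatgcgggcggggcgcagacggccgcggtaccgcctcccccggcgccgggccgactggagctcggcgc
IL20RB: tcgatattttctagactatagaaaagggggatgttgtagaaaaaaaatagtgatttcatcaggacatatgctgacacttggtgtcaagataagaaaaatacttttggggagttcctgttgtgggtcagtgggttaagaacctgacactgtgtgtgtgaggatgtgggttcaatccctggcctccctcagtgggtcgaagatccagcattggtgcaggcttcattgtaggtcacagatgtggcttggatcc
IL22RA1: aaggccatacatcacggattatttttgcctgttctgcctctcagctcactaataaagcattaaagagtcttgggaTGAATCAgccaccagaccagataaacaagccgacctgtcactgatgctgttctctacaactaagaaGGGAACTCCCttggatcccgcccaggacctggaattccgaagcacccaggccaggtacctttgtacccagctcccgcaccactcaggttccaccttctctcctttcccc

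None of the 4 motifs was found in the IL24, IL20RA and IL20RB windows, which says only that these letters are not in these 250 bases. IL22RA1 held 1 match to the AP-1 pattern, which leaves the middle base open (TGAATCA, 175 to 169 bases before the start). It also held 1 NF-kB match (GGGAACTCCC, 109 to 100 bases before the start). Among 20653 protein-coding genes, windows of the same length held an AP-1 match in 5.48%, a C/EBP match in 8.38%, a STAT match in 6.37% and an NF-kB match in 5.83%. The IL10RB window, not printed, held 1 STAT match (TTCCCGGAA). The share of G and C was 51.2% in the IL24 window, 65.6% in that of IL20RA, 44.8% in that of IL20RB, 51.2% in that of IL22RA1 and 80.8% in that of IL10RB.

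IL24 sits in the IL10 cytokine cluster, and its neighbours were compared with it in the same LE libraries. The cytokine genes IL20, 26.5 kb before the start of IL24, and IL19, 55.7 kb before it, had no count in LE. IL10, the anti-inflammatory cytokine 119 kb before it, had 4 counts in cyclic and 8 in pregnant LE. On the other side, PIGR, the receptor that carries IgA and IgM across epithelia, was the only neighbour tested in LE. Its CPM in cyclic gilts C128, C40, C42 and C78 was 154, 99.7, 143 and 77.7, and in pregnant gilts P139, P39, P41 and P43 it was 39.1, 17.9, 36.0 and 49.5. The PIGR groups did not overlap, and its fitted log2 difference was -1.72 ± 0.32 (SE), with an adjusted p of 0.0112 in edgeR's quasi-likelihood test, which did not pass the 1% limit. The robust likelihood ratio test and DESeq2 both called it, as they did 11.8% and 11.2% of all genes in LE. In GE the PIGR difference was -0.82 ± 0.65 (adjusted p = 0.486, same test).

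**Figure D2:**
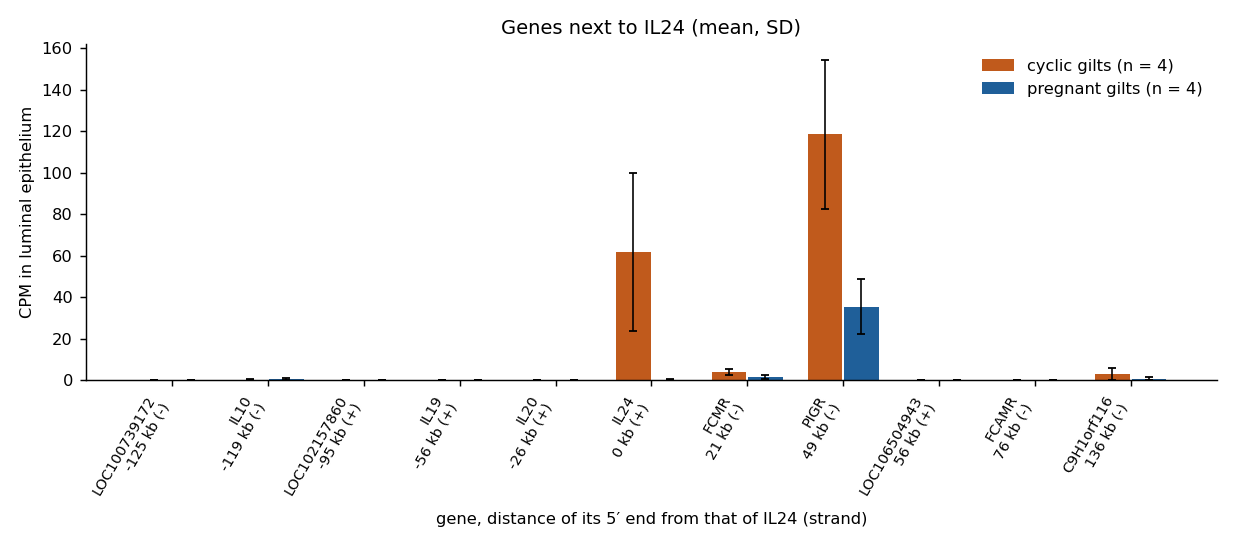
Mean CPM ± SD in LE (vertical axis, bars not drawn below 0) of IL24 and the 5 annotated genes on each side, in gene order with the distance of their 5′ ends from that of IL24 in kb. IL24 (62.0 and 0.189 CPM) and PIGR (119 and 35.6 CPM) stand out, and IL19 and IL20 are at 0.

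FCMR, the IgM Fc receptor gene on the minus strand, overlaps the last exon of IL24 by 1464 bases at chr9:67530944-67532407. Whether counting used strand is not given in the sources used here, so reads in that stretch could belong to either gene. FCMR had 67 counts in cyclic and 23 in pregnant LE against 1010 and 3 for IL24, and it had 35 counts in cyclic BV, where IL24 had none.

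IL20RA (gene 100622457, chr1:27137545-27172341, plus strand), the chain that binds IL24 together with IL20RB, was at low levels and mostly in LE. In cyclic LE its CPM was 14.5, 3.95, 4.17 and 3.29 in gilts C128, C40, C42 and C78, from 56, 19, 15 and 15 counts. In pregnant LE it was 3.28, 1.25, 1.64 and 3.11 CPM in gilts P139, P39, P41 and P43, from 13, 4, 12 and 10 counts. The lowest cyclic and highest pregnant values almost touched, and gilt C128 was far above the rest. The pooled CPM in pregnant LE was 0.354 of that in cyclic LE (exact 95% interval of 0.238 to 0.515, counting error only). Without gilt C128 this ratio was 0.584, outside that interval, so its size rested on that library. IL20RA was not in a filtered table, so no fitted value was made.

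IL20RA was absent or nearly so elsewhere. No count was found in the 8 BV libraries, and S held 4 counts, all in pregnant gilt P139. GE held 6 counts in cyclic gilt C128, 13 in pregnant gilt P139, 1 in pregnant gilt P39 and none in the other 4 libraries. LE was higher than GE in 7 of 7 gilts and higher than BV and S in 8 of 8.

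IL20RB (gene 100620875, chr13:77946356-77986158, plus strand), the chain common to both IL24 receptors, was detected in all 31 libraries. Its order of mean CPM was S (17.0 ± 5.65, n = 8), BV (17.0 ± 3.37, n = 8), LE (8.90 ± 2.54, n = 8) and GE (5.52 ± 2.63, n = 7). S and BV overlapped throughout, BV was above LE in 8 of 8 gilts, and LE was above GE in 6 of 7. In LE the values overlapped between groups, with 4.91, 9.97, 9.46 and 12.7 CPM in cyclic gilts C128, C40, C42 and C78 and 11.09, 6.89, 6.84 and 9.34 CPM in pregnant gilts P139, P39, P41 and P43. LE libraries held fibroblast transcripts (median of 12513 CPM against 80720 in S, as above), and their part in the LE level of IL20RB was not tested.

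GE was where IL20RB differed most between the groups. Cyclic GE held 4.09, 4.80, 3.25 and 2.37 CPM in gilts C128, C40, C42 and C78, and pregnant GE held 6.45, 9.52 and 8.17 CPM in gilts P139, P39 and P43. All pregnant values were above all cyclic ones, and the fitted log2 difference was 1.11 ± 0.33 (SE). Leukocyte markers in GE moved the same way without overlap, from 21.1 to 28.8 CPM in cyclic and from 75.1 to 120 CPM in pregnant gilts, and their part in the GE values of IL20RB and IL10RB was not tested. Elsewhere the groups overlapped, and the fitted difference was -0.13 ± 0.34 for LE, 0.20 ± 0.22 for BV and 0.22 ± 0.33 for S.

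IL22RA1 (gene 100623299, chr6:81867849-81885017, minus strand), the alternative partner of IL20RB and the specific chain of the IL22 receptor, was at the limit of detection. It had 8 counts in all libraries together. Pregnant LE held 1 count in gilt P139 and 4 in gilt P41, cyclic GE held 1 count in gilt C128, pregnant S held 2 counts in gilt P139, and BV held none. Cyclic LE, where IL24 was highest, held no IL22RA1 count, and 3 counts over that group would equal 0.178 CPM.

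IL10RB (gene 396657, chr13:196853606-196884237, plus strand) was the chain with the most even epithelial level. In LE it was at 8.27, 7.48, 11.96 and 12.3 CPM in cyclic gilts C128, C40, C42 and C78 and at 17.1, 16.9, 12.2 and 16.5 CPM in pregnant gilts P139, P39, P41 and P43. Pregnant gilt P41 fell within the cyclic range, and the other pregnant gilts were above it. In GE it was at 4.96, 10.7, 7.31 and 10.8 CPM in cyclic and at 16.3, 13.2 and 17.6 CPM in pregnant gilts P139, P39 and P43, with no overlap. The fitted log2 difference was 0.64 ± 0.25 (SE) in LE, 0.86 ± 0.31 in GE and 0.30 ± 0.42 in S. In BV, where it was not in the filtered table, 38 counts in cyclic and 56 in pregnant gilts gave a pooled ratio of 1.76 (exact 95% interval of 1.14 to 2.73). These BV groups were separated only by 4.44 CPM, the highest cyclic value, against 4.48 CPM, the lowest pregnant one. Epithelium markers in BV summed to 3.41 to 49.8 CPM in cyclic and to 162 to 322 CPM in pregnant gilts, with no overlap, and their part in the IL10RB difference was not tested.

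Across compartments IL10RB was higher in LE than in BV and S in 8 of 8 gilts. GE was above BV and S in 7 of 7. LE and GE overlapped, with means of 12.8 ± 3.77 CPM (n = 8) and 11.6 ± 4.55 CPM (n = 7), and so did BV and S, with 4.26 ± 1.57 and 4.46 ± 1.76 CPM (n = 8 each).

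Groups that did not overlap were thus those of IL24 and IL20RA in LE, IL20RB and IL10RB in GE, and IL10RB in BV. Among all tested genes, every cyclic library was above every pregnant one for 8.93% (LE), 10.8% (GE), 8.98% (BV) and 4.59% (S). Every pregnant library was above every cyclic one for 10.5% (LE), 12.3% (GE), 9.3% (BV) and 4.21% (S). Nothing is read from these shares for the 5 genes, since their choice used the same contrast.

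For a comparison between chains, CPM were divided by gene length, and the order of the chains depended on which length was used. The IL20RB model has 12504 bases of summed exons but 915 coding bases, that of IL20RA 6214 and 2191, and the IL10RB model has coding bases only (1089). Per kb of exons, cyclic LE held 1.04 for IL20RA, 0.741 for IL20RB and 9.18 for IL10RB in mean CPM per kb. Per kb of coding sequence the levels were 2.95 for IL20RA and 10.1 for IL20RB. The ratio of IL20RB to IL20RA was 0.712 in cyclic and 1.83 in pregnant LE on exon length, and 3.43 and 8.81 on coding length. Without gilt C128 the cyclic ratio on exon length turned to 1.40, so the order of the chains in cyclic LE also depended on 1 library. With either length, IL20RA was below IL20RB in 3 of 4 cyclic LE libraries, the exception being gilt C128, and in 4 of 4 pregnant ones.

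**Figure D3:**
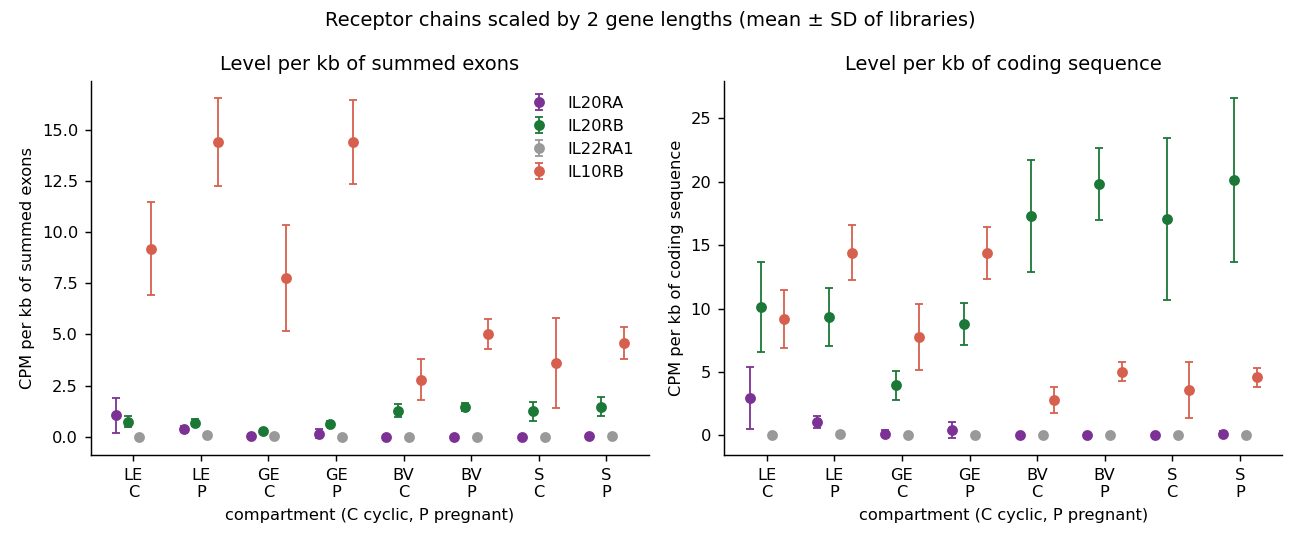
Mean level ± SD of the receptor chains in each compartment and group, as CPM per kb of summed exons (left) and per kb of coding sequence (right). IL20RA exceeds 0.5 only in cyclic LE on the left, and IL20RB passes IL10RB in BV, S and cyclic LE only on the right.

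Both chains of the IL20RA and IL20RB pair were counted in 4 of 4 cyclic and 4 of 4 pregnant LE libraries. In GE this held for 1 of 4 cyclic and 2 of 3 pregnant libraries, in S for 0 of 4 cyclic and 1 of 4 pregnant ones, and in BV for none of 8.

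The other ligands of the family were close to 0. IL22 and IL26 had no count in any library, and IL19 and IL20 had 1 count each. IL10 had 43 counts in 19 libraries, of which 16 were in cyclic S. Among the other class II receptors, IL22RA2, the soluble IL22 binding protein, had no count. IL10RA, the specific IL10 chain, was mainly in BV, at 26.6 ± 11.96 CPM in cyclic and 55.7 ± 25.0 CPM in pregnant gilts (n = 4 each), and in S.

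IFNLR1 pairs with IL10RB to bind interferon lambda. Its LE level was 2.78 ± 1.57 CPM in cyclic and 16.4 ± 11.2 CPM in pregnant gilts (n = 4 each), with no overlap. Its log2 difference of 2.50 ± 0.60 (SE) did not pass the limit in edgeR's quasi-likelihood test (adjusted p = 0.0293). The robust test and DESeq2 called it, as they did 11.8% and 11.2% of all genes in LE. None of the 7 class II receptors tested in LE passed, nor did any of the 6 tested in each other compartment, by the quasi-likelihood test. Unadjusted p values were under 0.05 for 2 of them each in LE and BV and for 1 each in GE and S, near the shares of all genes with such a p (26.9% in LE, 28.5% in BV, 23.0% in GE and 14.5% in S).

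Lists of genes around the pathway, chosen with earlier results of these data known, were counted in the fits over all genes. In LE, 8 of 55 tested pathway genes rose in pregnant gilts and none fell, against 3.32% of all 12002 genes called at an FDR of 1%, of which 2.02% rose and 1.29% fell. For 2 of the 8, S100A9 and S100A12, all cyclic LE libraries were at 0, so they were testable through the pregnant group alone. Among genes with counts in both groups, 6 of 53 pathway genes were called, all higher in pregnant gilts, against 3.29% of 11996 genes. The median log2 difference of the 55 was 0.29, against -0.01 over all genes. All 8 were also called by the robust test and DESeq2, which called 11.8% and 11.2% of all genes in LE. The LE count was 0 without cyclic gilt C40 or C42 or without pregnant gilt P39 or P43, 1 without pregnant gilt P139 and 5 without pregnant gilt P41.

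**Figure D4:**
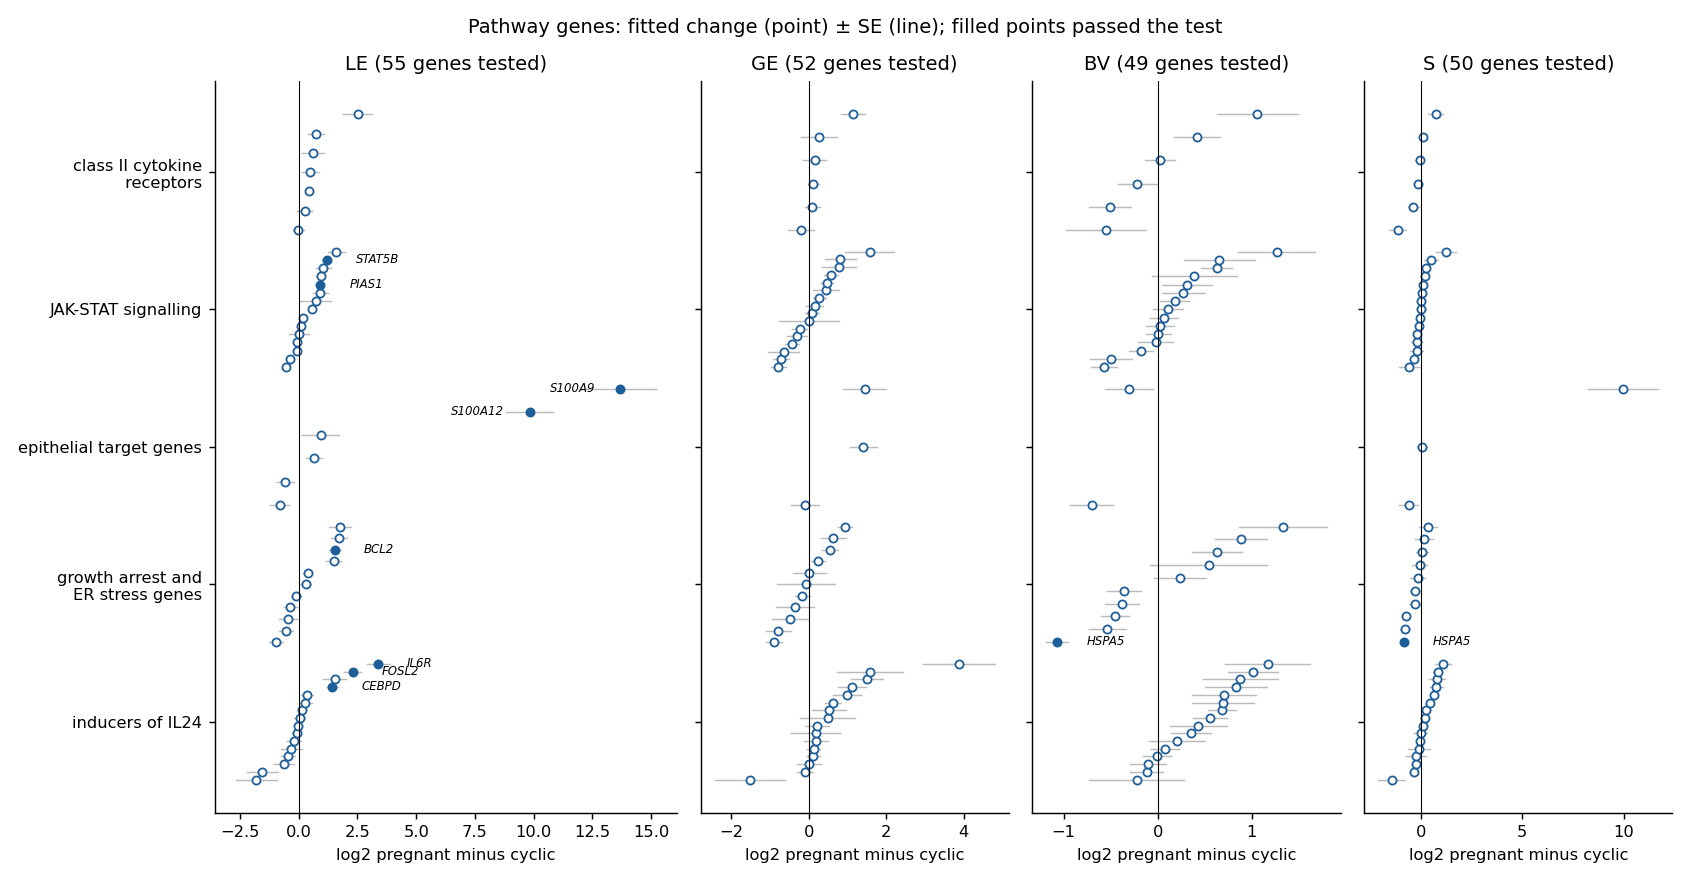
Fitted log2 difference, pregnant minus cyclic (horizontal axis, a scale for each panel), of the tested genes of 5 lists in each compartment; lines give the SE, and filled points passed the test. In LE 8 points are filled, all to the right of 0, 2 of them (S100A9 and S100A12) with no count in cyclic LE, in GE none, and in BV and S HSPA5 alone, to the left of 0.

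JAK and STAT genes carry the signal of IL24 receptors into the nucleus. Of 15 tested in LE, 2 rose: STAT5B, a STAT of growth hormone and prolactin receptors, and PIAS1, an inhibitor of activated STATs. STAT5B was at 35.4, 29.3, 39.2 and 44.4 CPM in cyclic gilts C128, C40, C42 and C78 and at 107, 75.5, 76.8 and 80.3 CPM in pregnant gilts P139, P39, P41 and P43, with a log2 difference of 1.19 ± 0.20 (adjusted p = 0.00693, edgeR quasi-likelihood test). PIAS1 differed by 0.92 ± 0.15 (adjusted p = 0.00662, same test) and lost its call when any 1 of the 8 libraries was left out.

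STAT3, the main STAT of this pathway, averaged 144 ± 25.5 CPM in LE of cyclic and 213 ± 27.0 CPM in that of pregnant gilts (n = 4 each) and did not pass (log2 difference 0.57 ± 0.18, adjusted p = 0.0705, edgeR quasi-likelihood test). Likewise JAK1, the kinase bound by IL20RA and IL22RA1, had 0.93 ± 0.20 (adjusted p = 0.0185), although the robust test and DESeq2 called it. TYK2, a kinase bound by IL10RB, had -0.07 ± 0.18. SOCS3, the feedback inhibitor induced by STAT3, averaged 2.20 ± 0.157 CPM in LE of cyclic and 3.82 ± 1.86 CPM in that of pregnant gilts (n = 4 each). The median over the 15 genes was 0.57.

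Of the 17 matched genes listed as epithelial targets of the pathway, 6 were detectable enough to test in LE. S100A9 and S100A12, antimicrobial calcium-binding proteins, were called. Both passed the filter through their pregnant libraries alone and could be called only as higher there, so their values are given with no p. Both had no count in the 4 cyclic LE libraries. S100A9 had 1960, 2557, 728 and 439 counts in pregnant gilts P139, P39, P41 and P43. Set against 3 counts in the cyclic libraries together, it was at least 1804-fold higher in pregnant LE. S100A12 had 196, 76, 91 and 61 counts, at least 135-fold higher by the same measure. These genes were thus high in the LE libraries in which IL24 was at 0 to 3 counts, and no link between them was tested. In S, S100A9 also had 512 counts in pregnant and 0 in cyclic gilts, and S100A12 had 44 and 0. Leukocytes also express S100A9 and S100A12. In LE, 9 leukocyte markers summed to 36.9 to 72.4 CPM in cyclic and 56.0 to 94.9 CPM in pregnant gilts, with CD79A at 0 in cyclic LE. The ranges overlapped, and the part of leukocytes was not tested.

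IL24 is also known for growth arrest and ER stress responses in other cells. Of 11 such genes tested in LE, BCL2, an inhibitor of cell death, rose, from 70.3, 55.9, 44.2 and 45.7 CPM in cyclic gilts C128, C40, C42 and C78 to 227, 160, 122 and 119 CPM in pregnant gilts P139, P39, P41 and P43 (log2 difference 1.54 ± 0.26, adjusted p = 0.00695, edgeR quasi-likelihood test). In BV and S the single gene called was HSPA5, the ER chaperone BiP. Uncalled, it was also lower in pregnant GE (pooled ratio 0.543, without overlap, as for 10.8% of all genes) and LE (0.734, with overlap). Its pregnancy effect did not pass edgeR's joint interaction test between compartments (adjusted p = 0.584). HSPA5 fell by 1.07 ± 0.12 on the log2 scale in BV (adjusted p = 0.0130, edgeR quasi-likelihood test within BV), from 426, 400, 445 and 386 CPM to 204, 185, 186 and 219 CPM. It kept this call without any 1 of the 8 libraries. In the same BV libraries smooth muscle markers had a median of 7342 CPM in cyclic and 1930 CPM in pregnant gilts, with overlap, and epithelium markers one of 26.2 and 182 CPM, without overlap. Their part in the HSPA5 difference was not tested. In S it fell by 0.83 ± 0.15 (unadjusted p = 0.000268, adjusted p = 0.104, same test), and the call was lost in all but 1 of the 8 fits that left out a library. These were 1 of 49 tested pathway genes in BV, where 1.86% of all genes were called (1.3% higher and 0.559% lower in pregnant gilts), and 1 of 50 in S, where 0.293% were called (0.184% higher and 0.109% lower).

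Of 16 tested genes known to induce IL24 or to feed its inducers, 3 rose in LE, against a median of -0.00 over the list. IL6R, the specific chain of the IL6 receptor, was at 5.69, 10.6, 11.96 and 16.2 CPM in cyclic gilts C128, C40, C42 and C78 and at 175, 124, 38.3 and 132 CPM in pregnant gilts P139, P39, P41 and P43 (log2 difference 3.38 ± 0.50, adjusted p = 0.00429, edgeR quasi-likelihood test). FOSL2, an AP-1 subunit, differed by 2.29 ± 0.38 (adjusted p = 0.00673), and CEBPD, a C/EBP factor, by 1.44 ± 0.24 (adjusted p = 0.00682). These rises were in the libraries in which IL24 was low or absent. The rises and the low IL24 belong to the same contrast of pregnant against cyclic LE, and no link between them was tested. IL1A, a cytokine that induces IL24 in skin cells, averaged 37.8 ± 23.8 CPM in LE of cyclic and 10.5 ± 10.6 CPM in that of pregnant gilts (n = 4 each). It did not pass within LE (adjusted p = 0.229, edgeR quasi-likelihood test), although the robust test called it. GE showed the opposite order, with 1.56 ± 1.72 CPM in cyclic (n = 4) and 23.96 ± 19.3 CPM in pregnant gilts (n = 3) and no overlap. The GE difference in IL1A did not pass either (log2 difference 3.88 ± 0.92, adjusted p = 0.0704, edgeR quasi-likelihood test), although the robust test and DESeq2 called it. Whether LE and GE differed in this was not tested.

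In GE none of 52 tested genes passed the quasi-likelihood test, while 18 had an unadjusted p under 0.05, against 23.0% of all genes. The robust test and DESeq2 called 5 each, against 6.66% and 6.64% of all genes. By the quasi-likelihood test, of all 11905 genes tested in GE, 0.748% were called, 0.512% as higher and 0.235% as lower in pregnant gilts.

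Whether the pregnancy effect differed between compartments was tested in a joint fit over 9727 genes. This fit left out that compartments share gilts. The effect differed for 2 of 45 pathway genes, BCL2 (adjusted p = 0.00496) and PIAS1 (adjusted p = 0.00637, edgeR quasi-likelihood interaction test), against 2.02% of all genes. With gilt as a block, the same test gave an adjusted p of 0.00929 for BCL2 and 0.00561 for PIAS1, and FOSL2 also passed (adjusted p = 0.000707). The log2 difference of BCL2 was 1.54 (LE), 0.94 (GE), -0.36 (BV) and 0.06 (S), and that of PIAS1 was 0.92, 0.09, -0.17 and 0.12. Without a gilt the count was 0 for gilts C40, C42, C78, P39 and P43 and 1 for gilts C128, P139 and P41. Levels differed between compartments for 32 of 45 pathway genes, near the 71.3% of all genes.

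The genes whose levels were most like those of IL24 were found by Pearson's r of log2(CPM + 1) over the 31 libraries, among 15834 genes with at least 100 counts. They were FXYD4, a regulator of the sodium pump (r = 0.96), LOC100625810 (0.93), CDH17, an intestinal cadherin (0.93), ZNF750, a regulator of epidermal differentiation (0.92), LOC110260191 (0.91) and SMC6, a subunit of a DNA repair complex (0.90). The libraries share gilts and scaling, and each r rests mainly on the 4 cyclic LE libraries, so it is a description only. FXYD4 was at 172, 28.3, 32.0 and 12.1 CPM in cyclic LE of gilts C128, C40, C42 and C78 and at most 0.958 CPM in pregnant LE. CDH17 was at 1878, 76.9, 45.6 and 23.7 CPM there. Like IL24, both were highest in gilt C128 and lowest in gilt C78. Ranked values (Spearman) kept 1 of these 6 genes, and a pseudocount of 5 CPM kept 3.

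**Figure D5:**
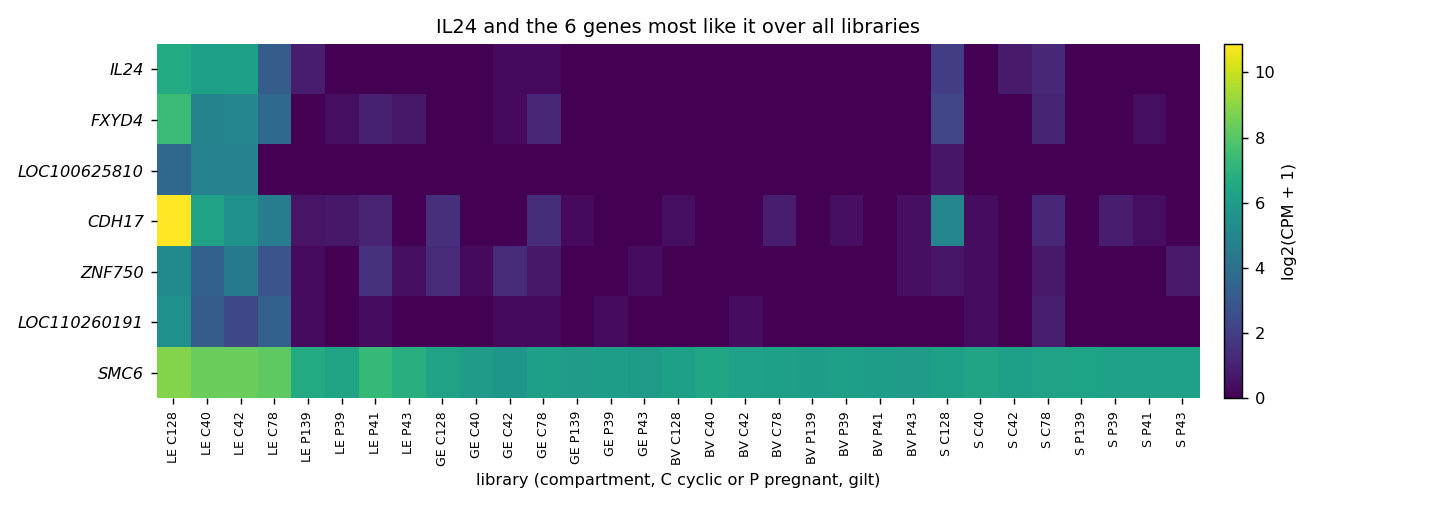
Level of IL24 and of the 6 genes most like it (rows) in each of 31 libraries (columns, ordered by compartment, group and gilt), coloured by log2(CPM + 1). The 4 cyclic LE libraries at the left are the brightest of each row except for LOC100625810, at 0 in LE of gilt C78, and CDH17, at 30.02 CPM in S of gilt C128 and 23.7 CPM in LE of gilt C78.

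For IL20RA the most like genes were SPTLC3, a subunit of the enzyme that starts sphingolipid synthesis (r = 0.92), TMC5 (0.90) and KIAA1468 (0.89). In LE, SPTLC3 averaged 44.3 CPM in cyclic and 14.2 CPM in pregnant gilts. For IL20RB they were LOC110256540 (0.90), CORO2B (0.89) and ZBTB16, a transcription factor of the zinc finger family (0.88), which was highest in S with 243 CPM in cyclic and 325 CPM in pregnant gilts. For IL10RB they were MFSD6 (0.93), SLC37A1 (0.91) and PLAGL2 (0.91), and MFSD6 averaged 213 CPM in LE of cyclic and 498 CPM in that of pregnant gilts. For IL22RA1 the highest r was 0.63 (PRPF38B, ahead of ABCA12 and FRAT2), which rests on 4 libraries with 1 to 4 counts each.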

How the data were processed

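Ovation SoLo libraries of LCM samples were sequenced as single reads. The authors used Trim Galore for trimming, Hisat2 for mapping (Sscrofa11.1), nudup from NuGEN against PCR duplicates and QuasR for counting, and deposited raw counts per NCBI gene, with a full and a filtered (detectable genes) table per compartment. Versions, the CPM minimum and the use of strand are not given in the sources used here.

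The 5 genes and all lists were chosen with earlier results of these data known. Of 86 pathway symbols, 79 matched a gene. Libraries were grouped by their labels. Counts of the filtered tables were fitted within each compartment with edgeR 4.0.16 (R 4.3.3), TMM and the quasi-likelihood F test, in place of the robust GLM of the study, which was run as an alternative with DESeq2 1.42.0. Genes were called at a Benjamini-Hochberg FDR of 1% in LE, whose largest called unadjusted p (0.000328) was the limit on p in the other compartments. Displayed CPM used TMM factors over all 31 libraries. Pooled ratios carry exact binomial 95% intervals, and floors are 3 counts; both cover counting error only. Promoter windows were searched for 4 motifs on both strands; a looser NF-kB pattern, searched first, was replaced by its consensus. The script was tested on simulated counts. Libraries of a group are separate gilts, and 45 pairs within groups differed by 6.96 to 71.4 times the counting noise (chi-square per degree of freedom), so none was a duplicate. No gilt is in both groups, so pregnant and cyclic libraries are unpaired, whereas the compartments share gilts. Named genes were the 5 genes, every called pathway gene (at most 20 a compartment), the IL10 family ligands and class II receptors, 5 annotated genes on each side of IL24, and the genes most correlated with IL24 (6) and with each receptor chain (3); genes named with a value outside this rule (STAT3, JAK1, TYK2, SOCS3, IL1A) were chosen after their values were seen. The alternatives were RLE scaling, other filters, an FDR of 5%, the other tests, each library left out, gilt as a block, other pseudocounts and, added after seeing the data, coding length, chain ratios without each LE library, IL24 without 2 stromal libraries, and counts without genes at 0 in a whole group.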

Additional observations from a re-analysis of the deposited data

Results flagged for a closer look

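In 45 groups of 4 libraries, the library farthest from the rest was compared with the spread of its group by Dixon's 95% limit. Chance flags about 1 in 20 groups whose values all vary. A single library above others that are all at 0 is flagged whatever its count, so such flags say nothing. IL24 and the receptor chains were chosen by name, with their pattern in these data already known. Their flags are therefore given as descriptions, and the chance rate of 1 in 20 is not applied to them. Of the genes described, IL20RA stood apart in LE of cyclic gilt C128, with 14.5 CPM against 4.17 CPM in the next library. IL10RB was low in LE of pregnant gilt P41, with 12.2 CPM. Single libraries above groups otherwise at 0 came from 6 counts or fewer each. In GE of cyclic gilt C128 these were IL20RA (1.29 CPM) and IL22RA1 (0.215 CPM). In pregnant gilt P139 they were IL24 in LE (0.756 CPM) and IL20RA and IL22RA1 in S (0.941 and 0.471 CPM). Of the called pathway genes, CEBPD was low in LE of cyclic gilt C128 (37.5 CPM) and STAT5B high in LE of pregnant gilt P139 (107 CPM). The pregnancy effect differed between compartments for BCL2 (adjusted p = 0.00496) and PIAS1 (adjusted p = 0.00637) in edgeR's joint interaction test.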

How the results depend on the processing

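The LE count of 8 called pathway genes became 17 with the robust likelihood ratio test, 14 with DESeq2 and 14 at an FDR of 5%, and ranged from 0 to 8 when a library was left out. The GE count of 0 became 5 with the robust test, 5 with DESeq2 and 1 at an FDR of 5%, and was 0 without any 1 library. The BV count of 1 became 7, 4 and 5, and was 1 without any 1 library. The S count of 1 became 4 with the robust test, 3 with DESeq2 and 0 at an FDR of 5%, and ranged from 0 to 2 when a library was left out. The count of genes whose pregnancy effect differed (2) was 6 at an FDR of 5%, 1 with filterByExpr, which tested 61 pathway genes, and 0 to 1 without a gilt. The cause of these shifts was not tested. RLE scaling and the other filters moved no count within a compartment by over 1.5 times. Levels differed for 31 to 36 of 45 pathway genes, and for 44 of 61 with filterByExpr.

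Pregnant and cyclic gilts are different animals, so no paired fit of that contrast was possible. With gilt as the block across compartments, the effect differed for 3 pathway genes (FOSL2 added, adjusted p = 0.000707) and the level for 32, and BCL2 and PIAS1 kept their calls.

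Of 114 recomputed differences of IL24, IL20RA, IL20RB and IL10RB, 112 moved by less than 1 SD; IL22RA1 was not recomputed. The IL20RA ratio in LE ranged from 0.301 to 0.584 when a library was left out, with the highest value without cyclic gilt C128. The fitted IL24 value ranged from -11.07 to -7.58 and is no bound, since it was -11.07 without pregnant gilt P139, the only one with a count. IL10RB in S became 0.83 without cyclic gilt C78. IL20RB changed sign in 3 fits that left out a library, 1 in LE and 2 in S. Depth limits statements on IL22RA1 and on IL20RA outside LE.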
